A study of Mus musculus with 2 samples.

Results

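The serotonin receptor genes Htr1a, Htr1b, Htr2a, Htr2c, Htr3a, Htr4, Htr5a, Htr6 and Htr7 were followed in the mouse hippocampus after a diet with the carotenoid astaxanthin. Probes were assigned to them through the RefSeq accession printed on the array, which gave 11 probes for these 9 genes among 33266 genes and unnamed transcripts in all; Htr2c and Htr4 had 2 probes each and the others 1. Animals were C57BL/6J males, 11 weeks of age, weighed 26 to 28 g and were caged singly, and all of them had 1 week to settle on the powdered chow. For the next 4 weeks the ASX group ate chow carrying 0.5% by weight of an astaxanthin powder (astaxanthin made up 2% of that powder), and the control group ate chow with placebo powder and 0% of it. No genetic change or other agent is named for either group. RNA of both diets was read on 2 two-colour arrays: ASX RNA carried the red dye Cy5 on array 1 and the green dye Cy3 on array 2, with control RNA on the other dye. The array titles give 4 mice and the design text gives 4 replicates per diet, but no label says whether the RNA of the mice was pooled, so the 2 arrays count as 1 replicate and no test of the diet was possible. An SD between the arrays is therefore taken as technical spread, though no label says that both arrays held the same RNA. The number of arrays limits the precision.

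Serotonin reaches the hippocampus through axons of neurons whose cell bodies lie in the raphe nuclei of the brainstem, and receptors on hippocampal cells receive it. Receptors of the Htr1 and Htr5 classes couple to inhibitory Gi and Go proteins, lower cyclic AMP and, for Htr1a, open inward rectifier potassium channels. Those of the Htr2 class couple to Gq and phospholipase C, Htr3a is a subunit of an ion channel, and Htr4, Htr6 and Htr7 couple to Gs and raise cyclic AMP. In the hippocampus Htr1a is best known from pyramidal and granule neurons and Htr3a from a class of interneurons.

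No receptor stood apart between the diets. Of the 9 genes, 7 were measured, meaning that the scanner flagged the probe as well above background in all 4 readings (each RNA on each array). Their mean ratios of ASX over control ran from 0.943-fold for Htr2c to 1.11-fold for Htr3a, and all 7 lay within 1.2-fold, as 96.3% of all 23603 measured genes and transcripts did. By the size rule of at least 1.5-fold on each array, with the same RNA the higher, 0 of the 7 were higher (background 0.0636% of all genes) and 0 were lower (background 0.0212%). The looser rule of 1.2-fold on each array also took 0 of the 7, against 1.44% of all genes higher and 0.314% lower. Htr3a and Htr5a were above 0 on both arrays, which is 2 of 7 (28.6%, against 22.2% of all genes), and Htr2c was below 0 on both, which is 1 of 7 (14.3%, against 23.0%). The other 4, Htr1a, Htr2a, Htr6 and Htr7, had opposite signs on the arrays. Such shares, with 57.1% of the measured receptors and 54.8% of all genes of opposite sign, lie near the background.

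The tissue label was held against marker genes. All 6 genes of the hippocampal identity list were measured, among them Zbtb20 and Camk2a, the latter with a signal 764 to 1466 times the local background. All 8 striatum markers and 7 of 8 for thalamus and habenula were measured too. Being measured therefore does not tell hippocampus from these regions. Of 7 markers of serotonin neurons 5 were measured. Slc18a2, a vesicular transporter gene shared by all monoamine neurons, read 7.09 to 11.0 times the local background, Gata2 3.65 to 6.05, Fev 2.71 to 3.67 and Lmx1b 1.38 to 1.71. The serotonin transporter gene Slc6a4 was not well above background for either RNA on either array (at most 1.58 times the local background), nor was Gata3. Tph2, the gene of the neuronal serotonin-forming enzyme, carried the flag at 1.97 to 2.60 times the background. Across the array the flag was set at 75.8% to 78.2% of 43379 spots for mouse transcripts. Over all measured genes, which are not independent replicates, the ratios of the 2 arrays had a Pearson correlation of -0.029. In whole tissue, fewer cells of a type and less RNA per cell cannot be told apart.

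As examples of upstream sequence, 1 window is given for each class of G protein coupling. They were chosen among the 4 members whose RefSeq window of 250 bases lies outside the annotated gene. The remaining window of these, that of the Gi-coupled Htr1b, is not printed and held no GC box but 2 CCAAT boxes. RefSeq (GRCm38.p6) held a window for 7 of the 9 genes, none for Htr3a or Htr4. Sequences read 5′ to 3′ on the gene's strand and end at the base before the annotated start; capitals mark the GC box GGGCGG on either strand. The windows are chr13:105443443-105443692 (plus strand) for the Gi-coupled Htr1a, chr14:74640624-74640873 (plus strand) for the Gq-coupled Htr2a and chr4:139075571-139075820 (minus strand) for the Gs-coupled Htr6.
Htr1a: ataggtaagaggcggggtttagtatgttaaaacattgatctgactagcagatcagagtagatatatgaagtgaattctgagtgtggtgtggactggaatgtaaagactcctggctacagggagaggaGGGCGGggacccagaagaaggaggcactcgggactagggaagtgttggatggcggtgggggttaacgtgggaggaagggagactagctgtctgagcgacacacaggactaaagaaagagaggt
Htr2a: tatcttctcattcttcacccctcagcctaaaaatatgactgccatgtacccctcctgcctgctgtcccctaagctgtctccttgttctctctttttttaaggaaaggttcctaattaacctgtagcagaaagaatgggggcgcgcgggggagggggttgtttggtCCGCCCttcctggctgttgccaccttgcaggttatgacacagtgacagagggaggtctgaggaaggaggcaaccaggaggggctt
Htr6: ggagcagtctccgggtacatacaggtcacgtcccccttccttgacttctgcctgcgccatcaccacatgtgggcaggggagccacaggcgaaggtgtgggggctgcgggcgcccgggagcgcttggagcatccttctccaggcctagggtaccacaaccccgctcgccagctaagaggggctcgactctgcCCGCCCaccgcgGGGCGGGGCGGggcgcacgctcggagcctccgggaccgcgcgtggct
A GC box began 123 bases before the start of Htr1a and 85 bases before that of Htr2a, and 3 of them, the last 2 sharing a base, began 59, 47 and 42 bases before the start of Htr6. In all, 3 of the 7 windows, the ones printed here, held a GC box, as 32.9% of 27025 windows of all genes did. The CCAAT box was in 2 of the 7 (Htr1b and Htr2c), against 34.5% of all windows. None of the 7 held the TATA box TATAAA (12.97% of all windows) or the E-box CACGTG (6.05%), and 1 (Htr7) held TGACG, the core of the cyclic AMP response element (17.9%), all searched on both strands. The windows of Htr2c, Htr5a and Htr7 do not lie outside the annotated gene. GC content ran from 50.4% in Htr1a to 82% in Htr7, and the number of CpG pairs from 4 in Htr2a to 41 in Htr7, against medians of 52% and 6 over all windows. A match to a motif is a description of the letters and was not tested against the array values.

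**Figure D1:**
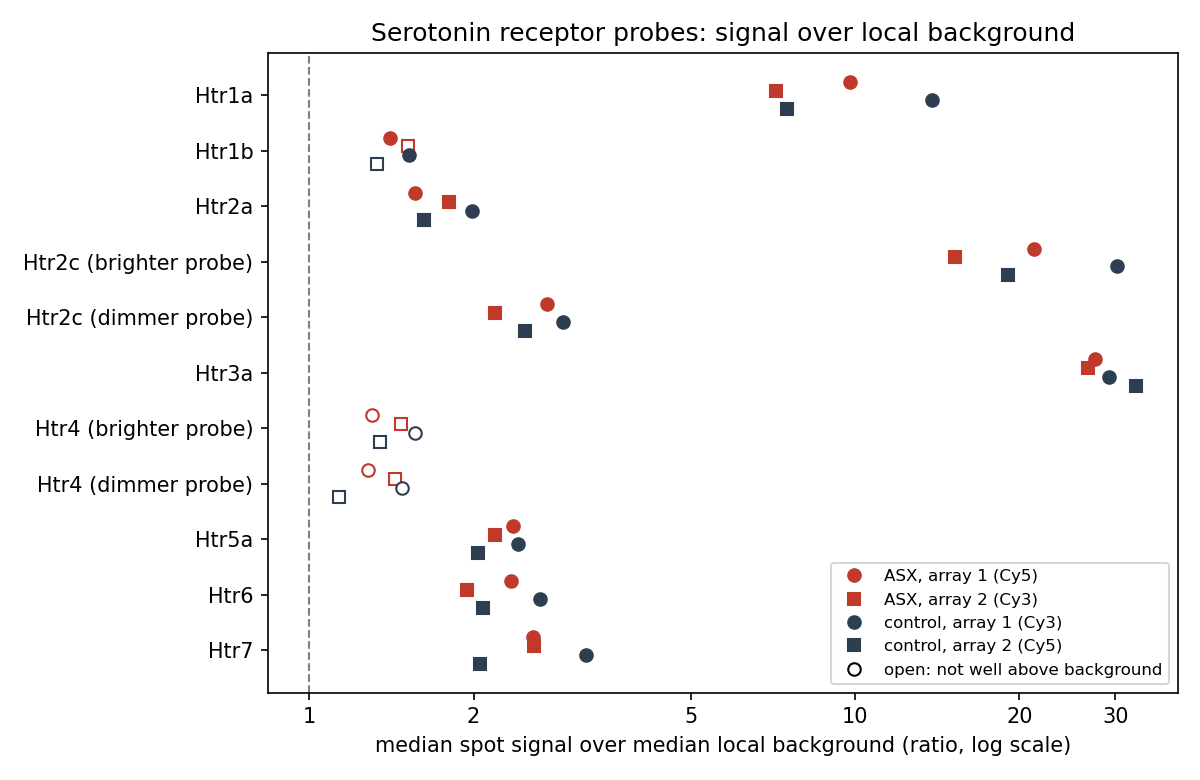
Ratio of the median spot signal to its median local background (x axis, log scale) for the 11 probes of the 9 receptor genes (y axis), with ASX RNA in red and control RNA in dark blue, circles for array 1 and squares for array 2. Filled points were well above background by the scanner's flag; all 4 readings of both Htr4 probes and the array 2 readings of Htr1b are open, and brightness does not compare levels between probes.

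Among the Gi-coupled receptors, Htr1a encodes both the autoreceptor of raphe neurons and a main postsynaptic receptor of the hippocampus. Its log2 level, the normalised brightness of each RNA, was 9.22 for ASX and 9.35 for control on array 1, and 9.21 and 9.09 on array 2. The order of the diets thus turned between the arrays: the log2 ratio of ASX over control was -0.13 on array 1 and 0.12 on array 2, a mean of -0.0016 ± 0.18 (SD between the 2 arrays). Htr5a, a less studied receptor of the same coupling, had log2 levels of 7.13 (ASX) and 6.97 (control) on array 1 and of 7.15 and 7.02 on array 2. Both ASX readings were above both control readings. Its ratios of 0.16 and 0.13 gave a mean of 0.14 ± 0.023, the smallest spread between arrays among the measured receptors. Htr1b, the release-controlling autoreceptor on axon terminals, was well above background for both RNAs on array 1 and for neither on array 2, with signals 1.33 to 1.52 times the local background. Its log2 ratios of 0.10 and 0.04 are those of a probe at the edge of detection, and it was left out of the counts.

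Among the Gq-coupled receptors, Htr2c had 2 measured probes, which disagreed. Htr2c, a receptor of neurons and, at high level, of the choroid plexus, was read by a probe 15.3 to 30.2 times the local background and by another at 2.19 to 2.92 times. On the brighter probe the log2 levels were 10.44 (ASX) and 10.50 (control) on array 1 and 10.36 and 10.48 on array 2. Both ASX readings were below both control readings. The ratios were -0.06 and -0.11, a mean of -0.09 ± 0.040 (0.943-fold). The dimmer probe had 0.19 on array 1 and -0.13 on array 2, a mean of 0.03 ± 0.23, so the place of Htr2c below 0 rests on 1 of its 2 probes. Markers of choroid plexus had a median log2 ratio of -0.07 over 10 measured genes of 12 listed, with 6 below 0 on both arrays and 2 above. Their summed level ran from 64795 to 65609 in ASX RNA and from 63702 to 68158 in control RNA, and their part in the Htr2c value was not tested. Such a sum leans on the brightest gene, here Enpp2 (366 to 734 times the local background), which had 0.09 and -0.12. Ttr, the most abundant choroid plexus transcript, had 0.08 and 0.12, while Calml4 had -0.40 and -0.21. With median centring the means were -0.12 for Ttr and -0.44 for Calml4, beside a median of all genes of -0.10. Htr2a, the receptor through which hallucinogens act in cortex, was dim at 1.56 to 1.98 times the local background. Its log2 levels were 6.56 (ASX) and 6.64 (control) on array 1 and 6.70 and 6.62 on array 2, again in opposite order, and the mean ratio was -0.0041 ± 0.12.

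Htr3a, the obligate subunit of the serotonin-gated cation channel, had the largest mean ratio of the set. Its probe gave log2 levels of 10.72 (ASX) and 10.51 (control) on array 1 and of 11.22 and 11.14 on array 2. ASX was higher within each array, but the difference between arrays exceeded that between diets, so the ASX reading of array 1 lay below the control reading of array 2. The log2 ratios were 0.21 and 0.09, a mean of 0.15 ± 0.083 (1.11-fold); with each array centred on its median instead, the mean was -0.03, and with spike-in centring -0.23. The list of interneuron markers was not limited to the class that carries Htr3a. Of its 13 genes, all measured, 0 were above 0 on both arrays, 3 were below and 10 had opposite signs, with a median of -0.06. Their summed level was 297646 in ASX and 227506 in control RNA on array 1 but 215714 and 282608 on array 2, higher for whichever RNA carried Cy5, and their part in the Htr3a value was not tested. The sum leans on its brightest gene, Cck (935 to 2508 times the local background), which had 0.68 and -0.58. The list medians were 0.07 on array 1 and -0.14 on array 2. Vip, the neuropeptide gene of an interneuron class that overlaps with Htr3a cells, had -0.13 and -0.06. Over the whole list the means ran from -0.16 for Calb2 to 0.06 for Cnr1, which had 0.20 and -0.08. Among 13117 other named genes, those with the pair of ratios nearest to Htr3a over the 2 arrays were Lor, Plet1 and Oscp1, at log2 distances of 0.013, 0.014 and 0.015. With 2 values a gene, that likeness is a description only.

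The Gs-coupled receptors followed no common direction. Htr7, which is linked to circadian rhythm and mood, had log2 levels of 7.27 (ASX) and 7.39 (control) on array 1 and of 7.46 and 7.10 on array 2. ASX was the lower RNA on the first and the higher on the second, each time the one on Cy3 being the brighter. Its ratios of -0.12 and 0.36 made a mean of 0.12 ± 0.34, the widest spread of the set, and array 2 alone (1.28-fold) was the only reading of a measured receptor beyond 1.2-fold. For Htr6, a receptor found in striatum and hippocampus, the log2 levels were 7.16 (ASX) and 7.12 (control) on array 1 and 6.91 and 7.05 on array 2. The ratios of 0.04 and -0.14 gave a mean of -0.05 ± 0.12. Markers of striatum, a neighbouring region rich in Htr6, had a median of -0.24, with 7 of 8 below 0 on both arrays; Penk, the enkephalin precursor gene, had -0.41 and -0.58. Their summed level was 18867 to 20101 in ASX RNA and 24940 to 25829 in control RNA, and their part in the Htr6 value was not tested. Neither Htr4 probe was well above background for any RNA on any array, at 1.13 to 1.56 times the local background, so no ratio is given for Htr4.

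**Figure D2:**
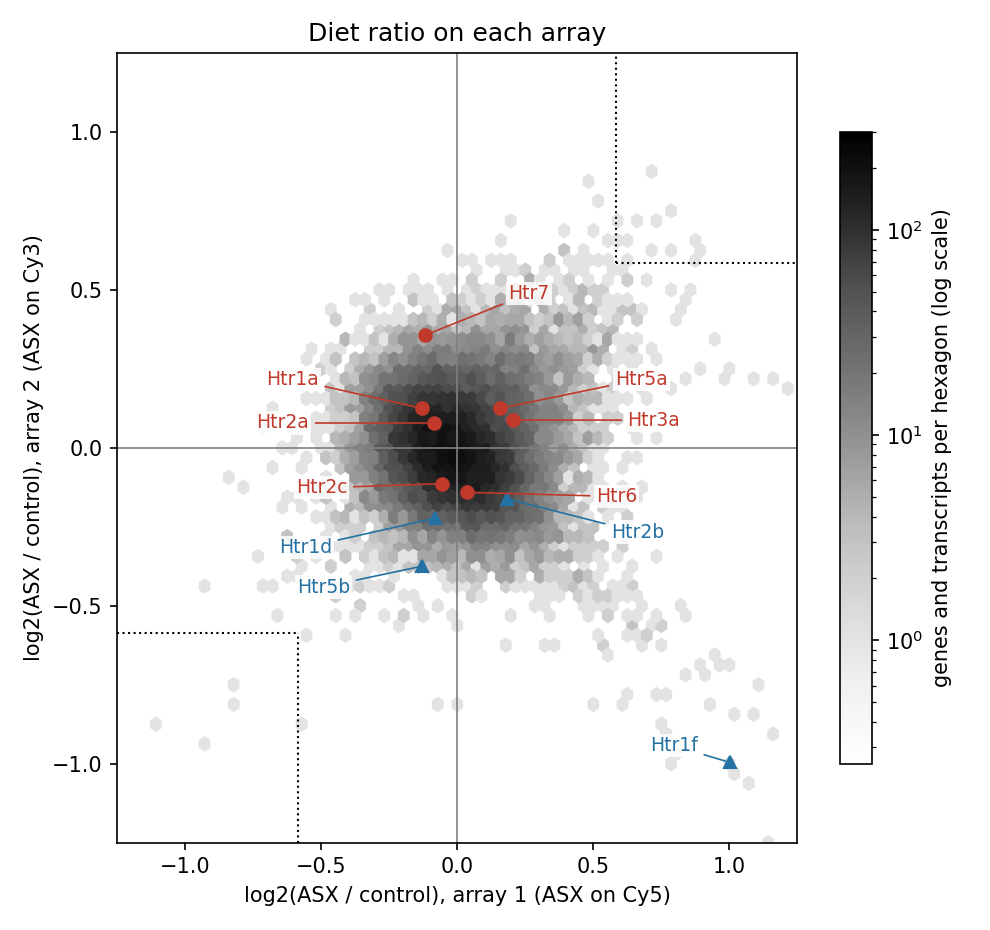
Log2 ratio of ASX over control on array 1 (x axis) and array 2 (y axis) for all measured genes and transcripts (grey hexagons, darker where more genes fall), the 7 measured receptors of the set (red circles) and 4 other serotonin receptors (blue triangles). Dotted corners mark the size rule of 1.5-fold on each array; no receptor lies in them, and Htr1f lies at 1.00 and -0.996, on the line where a ratio follows the dye. Genes beyond the axes are not drawn.

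These differences can be set beside 3 measures of technical error. The median SD between arrays was 0.12 over the 7 receptors and 0.11 over all genes. The mean ratio was larger than its own SD in 3 of the 7, Htr2c, Htr3a and Htr5a. That share was not computed over all genes, so the count does not set these receptors apart. The scanner software's error for a single ratio, per array, ran from 0.20 to 0.30 on the log2 scale for the 7 measured receptors. With the software's own log ratios, none of the 7 means exceeded its error: Htr5a had 0.15 with an error of 0.16, Htr3a 0.14 with 0.14, and Htr2c -0.09 with 0.14. Probes printed 10 times on each array, 133 of them in the brightness range of the receptors, had a median SD of 0.042 over spots for the same mean, and 0.054 among the 56 dimmer than a log2 brightness of 8. Every receptor probe was printed once, and 4 of the 7 were that dim. Among all 6518 genes and transcripts as dim, the central 90% of mean ratios (5th to 95th percentile) ran from -0.17 to 0.25, and among 8387 brighter ones up to the level of Htr3a from -0.17 to 0.24. All 7 receptors lay inside these ranges. Over the 7 receptors the median was -0.0016 (-0.06 on array 1 and 0.09 on array 2), against -0.0042 over all genes and -0.019 over genes with a symbol.

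**Figure D3:**
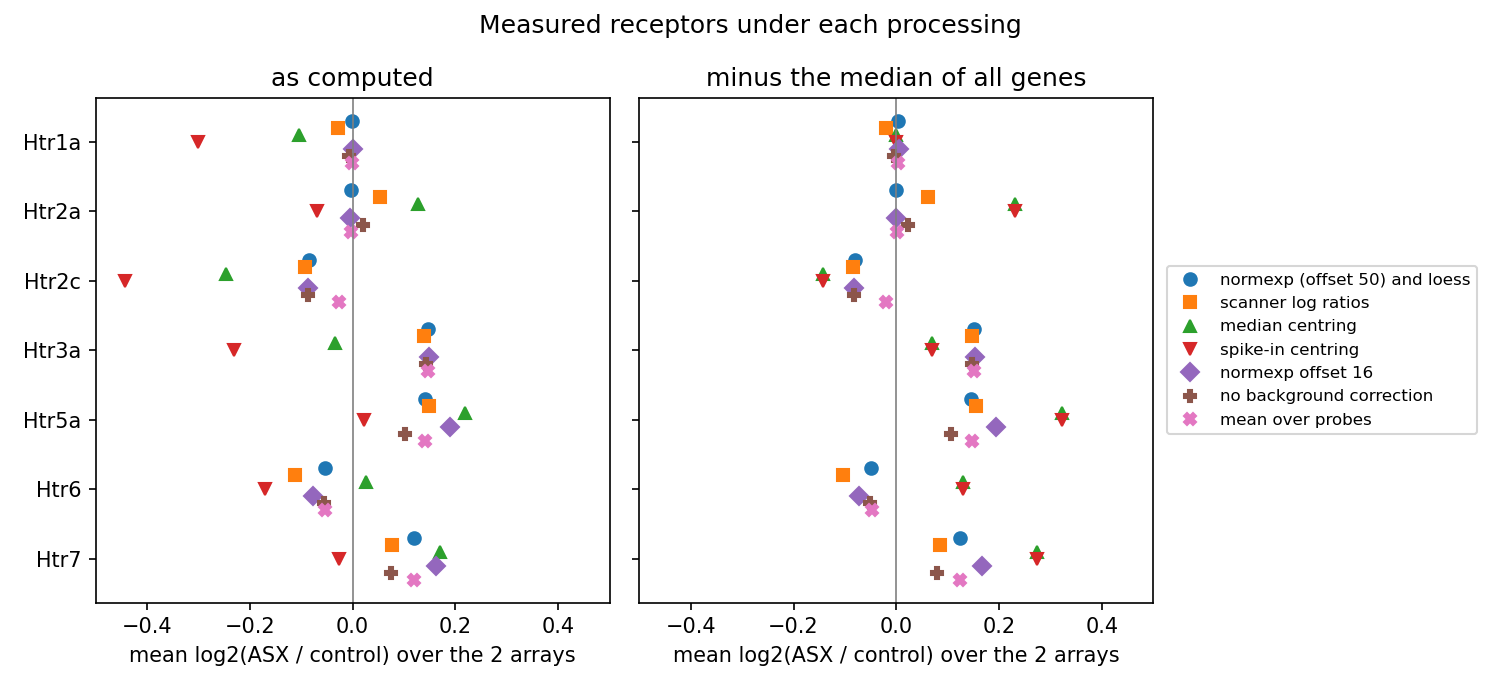
Mean log2 ratio of ASX over control (x axis) for the 7 measured receptors (y axis) under 7 ways of processing the same 2 arrays, as computed (left) and after subtracting the median of all genes under that processing (right). Spike-in centring moves every receptor down on the left, Htr3a to -0.23; on the right both centrings coincide by construction, with Htr5a at 0.32 and Htr2c at -0.14.

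The scaling set the sign of some receptors. Centring each array on its median moved the median of all genes to -0.10, and centring it on the spike-in control spots moved that median to -0.30. Htr5a had a mean of 0.22 with median centring, 0.021 with spike-in centring, 0.15 with the software's log ratios, 0.19 with an offset of 16 and 0.10 without background correction. For Htr2c the corresponding means were -0.25, -0.44, -0.09, -0.09 and -0.09, and the mean over its probes was -0.026. Htr7 had -0.03 with spike-in centring. Relative to the median of all genes, both centrings give the same value by construction. Htr5a was 0.32 higher, Htr7 0.27, Htr2a 0.23, Htr6 0.13 and Htr3a 0.07, while Htr1a was at -0.0005 and Htr2c was 0.14 lower. The 4 largest of these values belonged to the 4 receptors dimmer than a log2 brightness of 8. Htr3b, a receptor outside the set and not well above background, had a mean of 0.20 with median centring.

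The other serotonin receptors on the array were Htr1d, Htr1f, Htr2b, Htr3b and Htr5b, of which 4 were measured. None of the 4 was above 0 on both arrays, and Htr5b and Htr1d were below 0 on both. Htr5b had log2 ratios of -0.13 and -0.37, a mean of -0.25 ± 0.17 (0.840-fold). Its signal, not normalised, was 15.6 times the local background for ASX and 21.6 for control on array 1, and 8.82 and 13.8 on array 2. Such signals can be lower for ASX where the normalised ratio is near 0. Maoa, with a mean log2 ratio of -0.0008, read 28.1 for ASX and 40.1 for control on array 1, and 24.7 and 29.6 on array 2. That receptor is known from the medial habenula and from CA1. Markers of thalamus and habenula had a median of -0.15, with 6 of 7 measured genes below 0 on both arrays, Tnnt1 at -0.57 and -0.34 and Prkcd at -0.39 and -0.25. Their summed level was 5156 to 5257 in ASX RNA and 5803 to 6106 in control RNA, and their part in the Htr5b value was not tested. Htr1d, a Gi-coupled receptor of axon terminals, was dim, at 1.43 to 1.68 times the local background, with ratios of -0.08 and -0.22; with median centring its mean was 0.0033. Htr3b, which lies next to Htr3a in the genome and whose product joins it in a mixed channel, was not well above background anywhere.

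Genes that make, carry and break down serotonin showed small ratios. Of 10 listed, 7 were measured, 0 were above 0 on both arrays and 3 were below, with a median of -0.026, and all 7 lay within 1.2-fold. Ddc, whose enzyme completes serotonin and dopamine synthesis, had -0.07 and -0.26. Tph2 had -0.07 and -0.08 (a mean of 0.013 with median centring), and Maob, a monoamine oxidase gene, -0.08 and -0.05. Slc29a4, a low-affinity monoamine transporter gene, had 0.26 and -0.15.

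**Figure D4:**
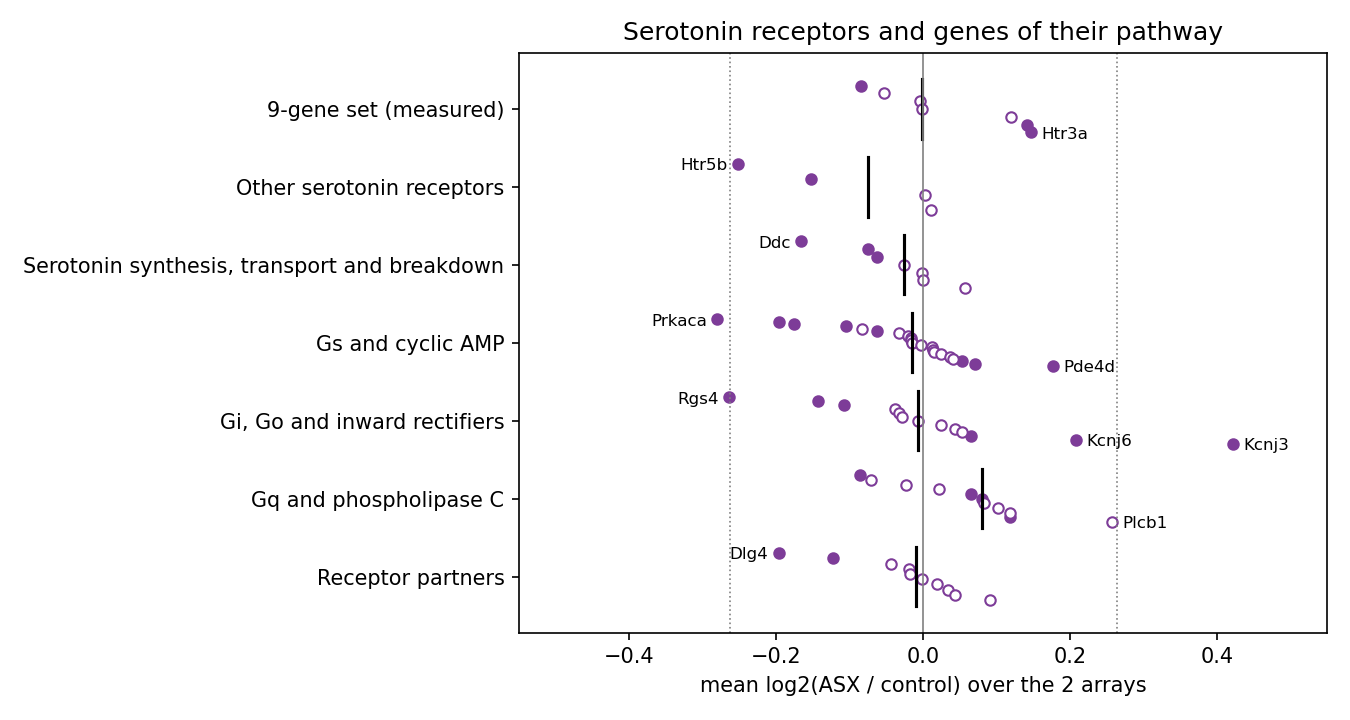
Mean log2 ratio of ASX over control (x axis) of each measured gene in the receptor set and in 6 lists of related genes (y axis). Filled points had the same sign on both arrays and open points opposite signs, black bars are list medians, and dotted lines mark 1.2-fold; Kcnj3 at 0.42 is the farthest point.

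Downstream of the Gi-coupled receptors, the list of Gi and Go proteins, inward rectifiers and their regulators held the largest ratio of any pathway list. Kcnj3, a subunit gene of the potassium channel that Htr1a opens, had 0.41 on array 1 and 0.44 on array 2, a mean of 0.42 ± 0.023 (1.34-fold). It was the only gene of the 13 measured in that list past 1.2-fold on each array, where 1.44% of all genes were. The mean was 0.32 with median centring, 0.50 with the software's log ratios and 0.12 with spike-in centring. Kcnj6, which encodes a partner subunit, had 0.19 and 0.23, a mean of 0.21 ± 0.031, and -0.04 with spike-in centring. Kcnj9, another subunit gene, had -0.16 and 0.21, and Kcnj5 was not well above background. Rgs4, a regulator that shortens Gi signals, had -0.48 and -0.04, and its other measured probe -0.18 and 0.03. Gnaz, the gene of a Gi-class protein, had -0.11 and -0.17. By count, 3 of the 13 were above 0 on both arrays and 3 below, with a median of -0.0070.

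The Gs and cyclic AMP list had 3 of 21 genes above 0 on both arrays and 5 below, with a median of -0.016. Prkaca, a catalytic subunit gene of protein kinase A, had -0.07 and -0.49. Adcy5, the main striatal adenylyl cyclase gene, had -0.27 and -0.12, and Pde10a, a striatal phosphodiesterase gene, -0.14 and -0.22; both were below 0 on a further probe as well. Pde4d, a phosphodiesterase gene, had 0.28 and 0.07, but a mean of -0.04 with spike-in centring and 0.13 and -0.08 on its dimmer probe. In the Gq and phospholipase C list 3 of 11 were above 0 on both arrays and 1 below, with a median of 0.08. Plcb1, the hippocampal phospholipase gene, had 0.67 and -0.16 on its brightest probe, 0.45 and -0.0049 on the next and -0.57 and 0.12 on the third. Its probes thus disagreed in sign. Among 10 measured genes of receptor partners, 0 were above 0 on both arrays and 2 below, Dlg4 (a postsynaptic scaffold gene) at -0.26 and -0.14 and Grk2 (a receptor kinase gene) at -0.10 and -0.15. Of its other probes, 1 had 0.08 and -0.11 and the dimmest -0.30 and -0.13. None of these 3 lists held a gene past 1.2-fold on each array.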

How the data were processed

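Hippocampal RNA of ASX-fed and control mice was read on 2 two-colour arrays with exchanged dyes. Agilent Feature Extraction 11.0.1.1 made the files, per the file headers. The deposited intensity is the median brightness of a spot, with its local background, not normalized. The deposited processed intensity was background-subtracted and dye-normalized by the software. The deposited log10 ratio is Cy5 over Cy3, with an error, and the deposited p-value follows from ratio and error taken as 1 SD. The series value table, deposited by the authors, holds the same log10 ratios, not turned for the dye swap.

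Background was corrected by normexp (offset 50) and each array scaled by loess with control spots at weight 0, using limma 3.58.1 in R 4.3.3. After loss of 1639 control spots and 3 outlier spots, with 0 saturated, 41171 probes remained, and ratios were turned to log2(ASX / control). Levels of each RNA were taken after Aquantile scaling between arrays. RefSeq accessions named 23372 probes through the GRCm38.p6 gene table and 17799 had no symbol. Genome coordinates were not used to assign probes because the array's build differs. They served only for the upstream windows and for the place of Htr3b next to Htr3a. A gene took its brightest probe among the 30078 flagged well above background in all 4 readings. Up to 4 genes per related list, those with the largest absolute mean ratios, were named, and others were singled out after their values were seen (such as Ttr, Camk2a, Slc18a2, Gata2 and Slc6a4 among the markers, Kcnj9 and Kcnj5 in the pathway). The procedure was checked on simulated arrays with planted changes of at least 1.5-fold. Ratios as small as those of the receptors were not checked in this way. Receptors and lists were chosen with earlier results of these data known. Alternatives tried were other scalings, background corrections, filters, probe rules and each array alone.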

Additional observations from a re-analysis of the deposited data

How the results depend on the processing

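With 15 genes higher and 5 lower at 1.5-fold on each array, other processing gave other counts. The scanner's log ratios, and equally the series value table, gave 71 and 12. Median centring gave 12 lower genes, spike-in centring 4 higher and 34 lower, and an offset of 16 gave 28 higher. A rule of 1.2-fold gave 339 and 74. With 1 array left out, higher genes numbered 36 to 137 and lower genes 28 to 47. Receptors above 0 on both arrays numbered 2, but 0 with spike-in centring and 3 without background correction or without a filter on dim probes. Receptors below 0 numbered 1, but 4 with spike-in centring, 2 without a filter on dim probes and 0 with the mean over probes. With 1 array left out, 3 to 5 receptors were above 0 and 2 to 4 below. The median over receptors was -0.0016, -0.17 with spike-in centring, 0.053 with the scanner's log ratios, 0.025 with median centring and 0.020 without background correction; on a single array it was -0.06 (array 1) and 0.09 (array 2). The designed ratios of the spike-in RNAs are not given in the sources used here. A probe near background has a ratio pulled towards 0 by the offset, which limits Htr2a, Htr5a, Htr6 and Htr7. The cause of these shifts was not tested. No paired analysis was possible because the arrays form a single group of 1 replicate.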

Other observations

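Htr1f, a Gi-coupled receptor gene outside the set, followed the dye: the log2 ratio was 1.00 with ASX on Cy5 and -0.996 with ASX on Cy3, giving a mean of 0.0023 ± 1.41 (SD between the 2 arrays). Its signal was 3.53 times the local background for ASX and 2.37 for control on array 1, and 2.06 and 4.16 on array 2, higher each time for the RNA on Cy5. Read on array 1 alone it would be 2.00-fold higher in ASX, and on array 2 alone 0.501-fold. Htr2b showed the same order at a smaller size, with 0.18 and -0.16 on its measured probe, while Htr7 had the reverse order, -0.12 and 0.36.

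Markers of dentate granule cells, neurons that carry Htr1a, had a median log2 ratio of 0.12, with 4 of 5 measured genes above 0 on both arrays and 0 below; Stxbp6 had 0.16 and 0.10 and C1ql2 0.15 and 0.08. Of 7 measured pyramidal cell markers, 0 had the same sign on both arrays. With median centring the means were -0.02 for Stxbp6, -0.05 for C1ql2 and -0.18 for Calb1, but 0.06 for Prox1 and 0.15 for Tdo2. The median of all genes was -0.10 in that setting.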
